A study of Mus musculus with 14 samples.

Results

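The genes examined here encode the machinery that brings proteins into the endoplasmic reticulum (ER), folds them there and removes those that fail to fold, together with the sensors and transcription factors of the unfolded protein response. They were chosen by name, as 42 genes in 6 roles, and matched to the array through the gene symbols of its probe sets. The array held 39 of them, of 12394 genes with a probe set of their own, and 38 passed the filter on low intensity. Trib3 was measured but lay below that filter. Ero1l and Ero1lb matched no probe set by symbol and Sec61g matched only a probe set with several symbols, so these genes were not analysed here. Where a gene had more than 1 probe set, as 24 of the 39 did, the probe set with the highest mean over all arrays stood for it.

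The study put hepatic Jnk1 (Mapk8), a stress-activated protein kinase, under knockdown in C57BL/6J mice with diet-induced obesity (DIO) and measured liver RNA on 14 expression arrays of 1 colour. The vehicle group (n = 5, arrays 1 to 5) had no virus. The GFP shRNA group (n = 4, numbered 1, 2, 3 and 5) received an adenovirus whose short hairpin RNA is directed at green fluorescent protein, which mice lack, and the Jnk1 shRNA group (n = 5, arrays 1 to 5) an adenovirus with a hairpin directed at Jnk1. All 3 groups shared the strain and the obesity, and no lean group was among the samples. The sources used here do not give age, sex, viral dose, route or time after treatment. The labels do not say whether each replicate was a separate mouse, so p-values cover only the spread between samples, which may be technical. RNA came from whole liver, in which an adenovirus mainly enters hepatocytes but other cells contribute RNA too.

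A protein bound for secretion enters the ER through the Sec61 channel, loses its signal peptide, gains sugar chains and disulfide bonds, and is folded by chaperones such as BiP (Hspa5). When unfolded proteins build up, the sensors IRE1 (Ern1), PERK (Eif2ak3) and ATF6 are activated: IRE1 splices Xbp1 mRNA, PERK favours translation of Atf4, and a cleaved fragment of ATF6 enters the nucleus. The resulting transcription factors raise chaperones and degradation factors, and through CHOP (Ddit3) can end in cell death. The liver makes most plasma proteins and is rich in ER, and ER stress is known in the livers of obese animals. The arrays read mRNA only, not splicing of Xbp1, cleavage of ATF6 or phosphorylation of PERK.

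Because ATF6 and XBP1 act through short promoter elements, RefSeq promoter windows (assembly GRCm38.p6, 250 bases before to 50 after the transcription start) were searched on both strands for them, and 33 of the 39 members had a window. Atf6, Hyou1, Manf, Derl1, Sec61a1 and Ssr2 had no window in the table. The ER stress response element (ERSE), CCAAT and CCACG with any 9 bases between them, was found in 8 members: Hspa5, Hsp90b1 (at 2 sites), Calr, Canx, Dnajc3, Creld2, Pdia6 and Syvn1. It was found in 0.119% of all 32851 windows and in 1 of 75 other genes of the pathway with a window (Derl3). The sites are shown in the direction of transcription with 9 bases on either side, and the capitals mark the element. Where the capitals begin with CGTGG, the element lies on the opposite strand.
Hspa5, chr2:34772016-34772052, plus strand: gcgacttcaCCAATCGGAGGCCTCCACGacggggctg
Creld2, chr15:88819511-88819547, plus strand: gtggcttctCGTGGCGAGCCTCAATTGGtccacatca
Pdia6, chr12:17266482-17266518, plus strand: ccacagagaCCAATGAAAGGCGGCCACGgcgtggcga
Dnajc3, chr14:118937818-118937854, plus strand: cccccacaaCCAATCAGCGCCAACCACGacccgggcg
Syvn1, chr19:6046523-6046559, plus strand: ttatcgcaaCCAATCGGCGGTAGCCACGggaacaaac
Calr, chr8:84847066-84847102, minus strand: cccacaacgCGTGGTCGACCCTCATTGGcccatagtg
Canx, chr11:50325791-50325827, minus strand: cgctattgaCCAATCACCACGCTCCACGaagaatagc
Hsp90b1, chr10:86705629-86705665, minus strand: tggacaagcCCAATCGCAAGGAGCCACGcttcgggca
Hsp90b1, chr10:86705524-86705560, minus strand: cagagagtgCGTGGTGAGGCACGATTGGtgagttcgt

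The related element ERSE-II, ATTGG and CCACG with any 1 base between them, was found in Herpud1 and Dnajb11 and in 0.0365% of all windows. It was found in 0 of the 75 other genes of the pathway with a window. The site of Herpud1 ends 41 bases before the transcription start, and that of Dnajb11 ends 18 bases past it.
Herpud1, chr8:94386368-94386396, plus strand: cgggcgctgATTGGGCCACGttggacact
Dnajb11, chr16:22857843-22857871, plus strand: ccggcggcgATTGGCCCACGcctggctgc

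The composite element TTGCATCA, which C/EBP and ATF4 dimers are known to bind, was found in Herpud1 and Chac1 and in 0.895% of all windows. The letters TGACGTGG, a sequence that ATF6 or XBP1 can bind, were found in 0 of the 33 windows and in 0.676% of all windows. Among the 75 other genes of the pathway with a window, the composite element was found in 7. These were Nupr1, Cnpy2, Atf3, Slc7a11, Fgf21, Vldlr and Aars. The second sequence was found in 4 of the 75 (Txndc5, Txndc11, Vcp and Ube2j1).
Chac1, chr2:119351040-119351065, plus strand: tccctgccgTTGCATCActcctgcca
Herpud1, chr8:94386308-94386333, plus strand: cacggcgggTTGCATCAgcccgcacc

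Hspa5 and Creld2 both carry the first element and moved in opposite directions with Jnk1 shRNA, as described further on, so the 250 bases before their transcription starts are shown with the element in capitals. The parts of the element alone are common: CCAAT was found in 24 of the 33 windows and in 37.4% of all windows, and CCACG in 26 of the 33 and in 32.8% of all. A match of letters is a description and does not show that a factor binds there.
Hspa5, chr2:34771840-34772089, plus strand: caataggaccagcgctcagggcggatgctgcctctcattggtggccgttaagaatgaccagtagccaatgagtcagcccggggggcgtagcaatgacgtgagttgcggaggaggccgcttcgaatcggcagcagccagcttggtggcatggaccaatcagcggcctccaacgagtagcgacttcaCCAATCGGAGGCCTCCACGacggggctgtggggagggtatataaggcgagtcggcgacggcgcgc
Creld2, chr15:88819396-88819645, plus strand: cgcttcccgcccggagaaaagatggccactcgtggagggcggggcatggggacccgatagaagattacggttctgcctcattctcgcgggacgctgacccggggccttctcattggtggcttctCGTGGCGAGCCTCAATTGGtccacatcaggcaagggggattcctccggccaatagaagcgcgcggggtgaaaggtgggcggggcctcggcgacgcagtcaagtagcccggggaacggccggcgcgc

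The targeted gene was checked first. Mapk8 read 7.47 ± 0.14 (SD, n = 5, log2 intensity) with vehicle, 7.38 ± 0.09 (n = 4) with GFP shRNA and 6.07 ± 0.18 (n = 5) with Jnk1 shRNA (exact permutation p = 0.00794 against either group, two-sided, the smallest that the 126 splits against GFP shRNA can give). Deposited array medians ran from 41.8 to 58.3, and array 2 of the GFP group was the highest. The level of the spike-in probe sets, the bioB, bioC, bioD and cre hybridization controls, was 8.39 ± 0.32 on the Jnk1 arrays. It was 8.89 ± 0.07 with GFP shRNA and 8.90 ± 0.09 with vehicle (exact permutation p = 0.0159 for both, two-sided). Jnk1 array 1 had the lowest level, 7.92. Markers of hepatocytes (Alb, Ttr, Apoa1, Cyp2e1, Cps1) all passed the filter, with a summed intensity of 26300 to 27900 in vehicle, 26900 to 27400 in GFP and 25100 to 26900 in Jnk1 arrays. With Jnk1 shRNA, Apoa1 (-0.18) and Cyp2e1 (-0.14) were called lower against GFP shRNA. Against vehicle, Apoa1 (-0.18), Cyp2e1 (-0.20) and Cps1 (-0.12) were. Ttr (0.07 and 0.09) and Alb (-0.04 and 0.01) did not pass in either comparison. Summed markers of other cell types were lower on the Jnk1 arrays, at 1510 to 1890 against 2730 to 2920 with GFP shRNA and 2020 to 3290 with vehicle for Kupffer cells (5 of 6 markers kept), 535 to 662 against 757 to 940 and 874 to 939 for endothelium (5 of 5), and 1210 to 1360 against 1740 to 2010 and 1580 to 1850 for stellate cells (3 of 5). The Kupffer sum joined markers that went different ways: against vehicle, Vsig4 (-3.04), Clec4f (-2.40) and Adgre1 (-0.44) fell with Jnk1 shRNA while Cd5l (0.03) and Csf1r (-0.26) did not pass, and with GFP shRNA Vsig4 (-2.06) and Clec4f (-1.98) were lower and Cd5l (0.86) higher than with vehicle. Cdh5 of the endothelial list (0.20 against GFP shRNA) and Col3a1 of the stellate list (0.32 against vehicle) were not lower in those comparisons and did not pass. The 6 markers of the B and plasma cell list on the array summed to 145 to 196 against 195 to 245 and 169 to 246. Of these, 2 were kept, with Cd79a, Cd79b, Pou2af1 and Tnfrsf17 below the filter, and none of the 4 cholangiocyte markers was kept. Each sum given here took all markers of its list on the array, also those below the filter. The part of the spike-in shift and of these other cells in the results that follow was not tested, and in whole liver fewer cells of a type and less RNA per cell cannot be told apart.

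The ER genes did not move as a block with Jnk1 shRNA. Members of every role but the targets of ATF4 and CHOP passed the test, and within chaperones, isomerases, degradation factors and translocon genes some rose and others fell. Against GFP shRNA, 5 members were higher, 11 lower and 22 did not pass, of 38 tested. That is 42.1% called, where 33.1% of all 13575 tested probe sets were called, 17.3% higher and 15.8% lower. Against vehicle, 8 were higher, 11 lower and 19 did not pass, or 50% called against 37.6% of all probe sets (18.9% higher and 18.7% lower). The median difference of the members on the log2 scale was -0.06 against GFP shRNA and -0.15 against vehicle, and over all tested probe sets it was -0.01 and -0.02. These 2 comparisons share the 5 Jnk1 arrays and are not independent.

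The arrays of the compared groups did not overlap at all for 10 members (26.3%) against GFP shRNA, where 28.1% of all probe sets did not overlap, and for 12 (31.6%) against vehicle, where 27.7% did not. Member by member, differences ran from -1.30 for Pdia3 to 0.95 for Creld2 against GFP shRNA, and from -1.22 to 0.92 for the same genes against vehicle. The counts depend on scaling: with arrays scaled to a common median, 8 members were higher and 3 lower against GFP shRNA, and 72.3% of all calls were higher, where quantile normalization gave 52.3%. That scaling moved the median of all probe sets against GFP shRNA from -0.01 to 0.09, and with array 2 of the GFP group also left out, an alternative added after seeing the data, the counts were 5 higher and 6 lower. Against vehicle, 3 members were higher after median scaling and 3 with the spike-in covariate (the spike-in level added to the fit), where 8 were higher in the fit reported here. On values as deposited, or without Jnk1 array 2, 3 or 5, the number was 5. The spike-in level was itself lower with Jnk1 shRNA, and lowest on Jnk1 array 1. A fit with that covariate therefore cannot fully separate the level from the group, here or in the results that follow.

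**Figure D1:**
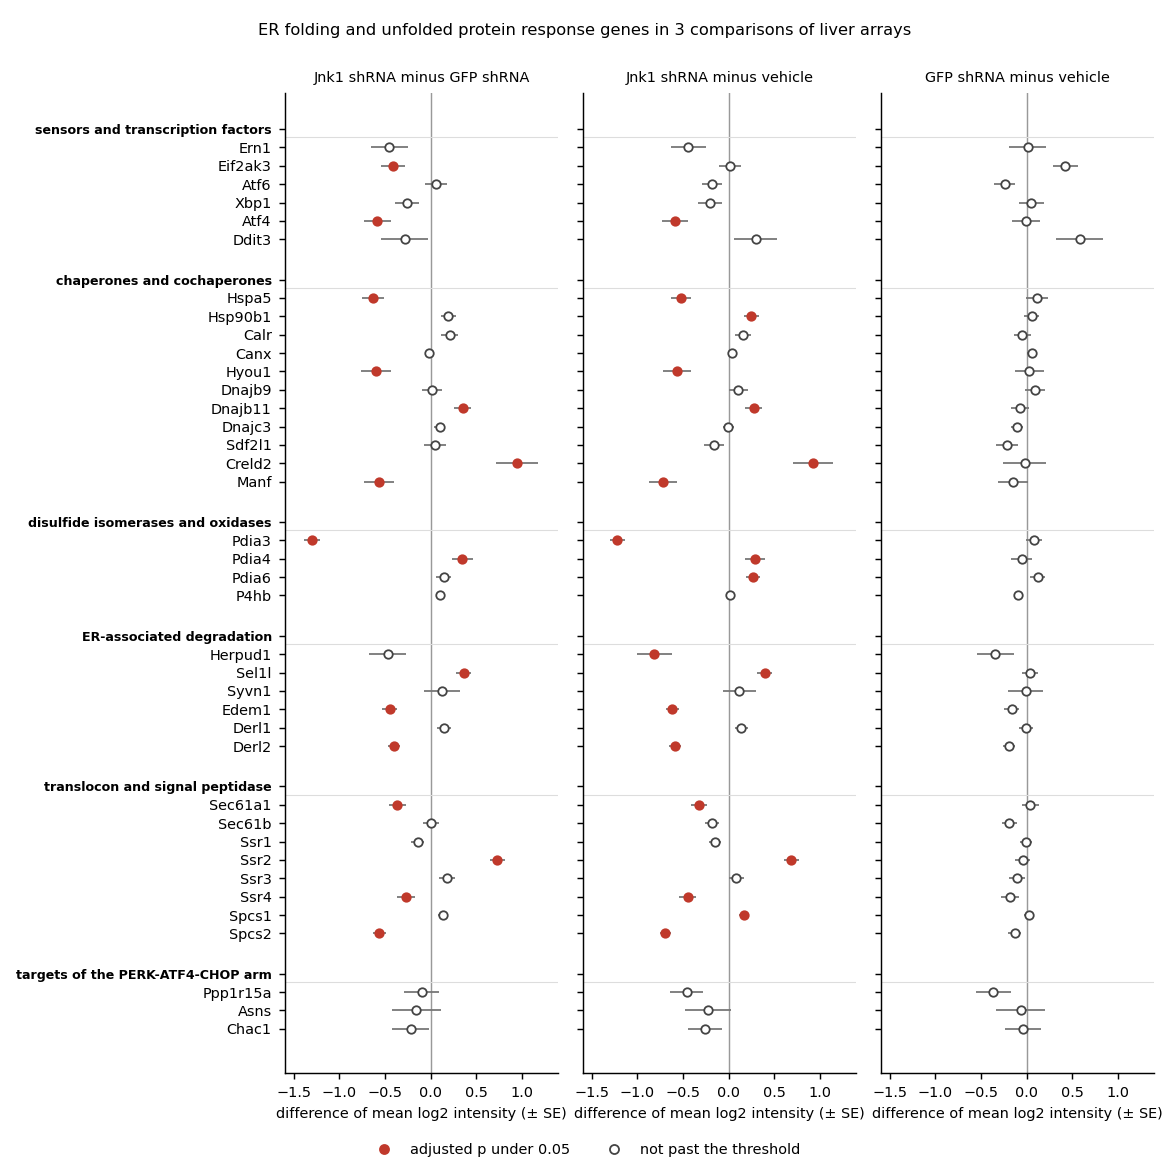
Difference of mean log2 intensity (± SE) for the 38 tested members in each of the 3 comparisons, ordered by role, with filled points for an adjusted p under 0.05. Pdia3 lies farthest to the left (-1.30 and -1.22) and Creld2 farthest to the right (0.95 and 0.92) in both comparisons with Jnk1 shRNA, and no point is filled for GFP shRNA minus vehicle.

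Among the 6 sensors and transcription factors, 2 fell against GFP shRNA (Eif2ak3 and Atf4) and 0 rose, and against vehicle only Atf4 fell. The median of the group was -0.35 against GFP shRNA and -0.19 against vehicle. Atf4, the transcription factor translated when eIF2α is phosphorylated, fell to 66.8% of its level with GFP shRNA and to 66.5% of its level with vehicle. Atf4 read 8.78, 8.16, 8.65, 8.74 and 8.93 with vehicle, 8.40, 8.85, 8.69 and 8.64 with GFP shRNA, and 8.35, 7.70, 8.20, 8.11 and 7.96 with Jnk1 shRNA. All 5 Jnk1 arrays lay below all GFP arrays, and against vehicle they overlapped through vehicle array 2 (8.16). The difference was -0.58 ± 0.15 (SE, adjusted p = 0.00724) against GFP shRNA and -0.59 ± 0.14 (SE, adjusted p = 0.00373) against vehicle. Its other tested probe set gave -0.74 and -0.79 and passed in both. After median scaling the fall against GFP shRNA was -0.37 and did not pass (adjusted p = 0.0756).

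Eif2ak3 encodes PERK, the kinase that acts upstream of Atf4. Eif2ak3 read 7.53, 7.16, 7.10, 7.76 and 7.38 with vehicle, 7.82, 7.73, 8.01 and 7.70 with GFP shRNA, and 7.46, 7.38, 7.29, 7.66 and 7.22 with Jnk1 shRNA. The 4 GFP arrays lay above all 5 Jnk1 arrays, while vehicle and Jnk1 arrays covered the same range. Eif2ak3 was thus lower with Jnk1 than with GFP shRNA (-0.41 ± 0.13 (SE, adjusted p = 0.0256)), not detectably different from vehicle (0.02 ± 0.12 SE, adjusted p = 0.935, 95% interval -0.25 to 0.28), and 0.43 ± 0.13 higher with GFP shRNA than with vehicle without passing (adjusted p = 0.115). The call against GFP shRNA was lost after median scaling (-0.23, adjusted p = 0.263), with the spike-in covariate (-0.38, adjusted p = 0.222), and without GFP array 3 (-0.34, adjusted p = 0.0825), Jnk1 array 3 (-0.38, adjusted p = 0.0577) or Jnk1 array 5 (-0.36, adjusted p = 0.0634).

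Ern1 encodes IRE1, the sensor that splices Xbp1. Ern1 read 5.39, 5.75, 5.88, 6.05 and 6.07 with vehicle, 5.80, 5.95, 5.48 and 6.13 with GFP shRNA, and 5.64, 5.10, 5.76, 5.50 and 4.94 with Jnk1 shRNA. Jnk1 arrays 2 and 5 were the lowest of all, and the groups overlapped. Its difference did not pass against GFP shRNA (-0.45 ± 0.20 (SE, adjusted p = 0.0969)) or against vehicle (-0.44 ± 0.19 (SE, adjusted p = 0.0816)), although 95% intervals of -0.88 to -0.03 and -0.84 to -0.04 lay below 0 before adjustment. Array weights brought it past the threshold in both comparisons (-0.52 and -0.57), and values as deposited did so against GFP shRNA (-0.60, adjusted p = 0.0341). Leaving out vehicle array 1 (-0.55, adjusted p = 0.033) or Jnk1 array 3 (-0.53, adjusted p = 0.0487) did so against vehicle. Atf6, the sensor that is cleaved in the Golgi, gave 0.06 against GFP shRNA and -0.18 against vehicle, with all arrays between 6.96 and 7.70.

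Xbp1, whose spliced form is the transcription factor downstream of IRE1, was read by 4 tested probe sets, and they disagreed on whether it passed. Xbp1 read 11.95, 11.35, 11.86, 12.01 and 11.89 with vehicle, 11.43, 12.00, 11.98 and 12.04 with GFP shRNA, and 11.71, 11.65, 11.44, 11.75 and 11.48 with Jnk1 shRNA. Vehicle array 2 and GFP array 1 lay far below the rest of their groups and just below the lowest Jnk1 array. This probe set gave -0.26 ± 0.14 (SE, adjusted p = 0.161) against GFP shRNA and -0.20 ± 0.13 (SE, adjusted p = 0.229) against vehicle. On values as deposited the same probe set fell in both (-0.46, adjusted p = 0.0232, and -0.45, adjusted p = 0.017), and after median scaling it fell against vehicle (-0.42, adjusted p = 0.0462). The other 3 probe sets fell against GFP shRNA by 0.28, 0.49 and 0.89 on the log2 scale (adjusted p = 0.0411, 0.022 and 0.00613), and against vehicle 2 of them fell, by 0.41 and 0.71 (adjusted p = 0.0338 and 0.0135). Without GFP array 1 the probe set of highest mean also passed against GFP shRNA (-0.40, adjusted p = 0.0196), and without vehicle array 2 it passed against vehicle (-0.32, adjusted p = 0.0277). The isoform behind each of the 4 was not analysed here.

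Ddit3 encodes CHOP, the transcription factor of the late, death-promoting phase of the response. Ddit3 read 6.48, 5.51, 6.79, 6.17 and 6.65 with vehicle, 7.39, 6.28, 7.19 and 6.75 with GFP shRNA, and 6.94, 6.56, 6.79, 6.54 and 6.25 with Jnk1 shRNA. The spread was wide, with a pooled SD of 0.43 within groups, and all 3 groups overlapped. Ddit3 gave -0.28 ± 0.25 (SE, adjusted p = 0.414) against GFP shRNA, 0.30 ± 0.24 (SE, adjusted p = 0.36) against vehicle, and 0.58 ± 0.25 (SE, adjusted p = 0.283) for GFP shRNA against vehicle, so none passed. The interval against GFP shRNA, -0.82 to 0.25, includes both a fall of the size seen for Atf4 and a small rise.

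Chaperones split in both directions. Of 11, Creld2 and Dnajb11 rose and Hspa5, Hyou1 and Manf fell against GFP shRNA, and the same 5 together with Hsp90b1, which rose, passed against vehicle. The median of the group was 0.05 and 0.04. Hspa5 encodes BiP, the main Hsp70 chaperone of the ER lumen and the usual readout of the response. Hspa5 read 11.94, 11.59, 12.03, 11.97 and 11.76 with vehicle, 12.02, 11.67, 12.16 and 12.03 with GFP shRNA, and 11.40, 11.66, 11.15, 11.37 and 11.09 with Jnk1 shRNA. Jnk1 array 2 was the highest of its group, at 11.66 just under the lowest GFP array and above vehicle array 2. Hspa5 fell to 64.4% of its level with GFP shRNA (-0.63 ± 0.12 (SE, adjusted p = 7.07e-04)) and to 69.7% of its level with vehicle (-0.52 ± 0.11 (SE, adjusted p = 0.00164)), and gave 0.11 ± 0.12 (SE, adjusted p = 0.71) between the controls. Another probe set gave -0.52 and -0.44 and passed in both. With the spike-in covariate Hspa5 did not pass (-0.53, adjusted p = 0.058, and -0.41, adjusted p = 0.119).

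Hyou1 encodes the large Hsp70-like protein that exchanges nucleotide on BiP. Hyou1 read 9.37, 9.77, 9.57, 9.79 and 9.75 with vehicle, 9.56, 9.33, 9.97 and 9.85 with GFP shRNA, and 8.91, 9.38, 8.61, 9.41 and 9.09 with Jnk1 shRNA. Jnk1 arrays 1, 3 and 5 lay below every control array, and Jnk1 arrays 2 and 4 reached into both control groups. It fell against GFP shRNA (-0.60 ± 0.16 (SE, adjusted p = 0.00898)) and against vehicle (-0.57 ± 0.15 (SE, adjusted p = 0.00704)). Its other 2 probe sets passed against vehicle (-0.64 and -0.55) and not against GFP shRNA (-0.21 and -0.39, adjusted p = 0.33 and 0.0902). Hyou1 did not pass after median scaling (-0.38, adjusted p = 0.188, against GFP shRNA and -0.52, adjusted p = 0.0513, against vehicle) or with the spike-in covariate (-0.27, adjusted p = 0.442, and -0.23, adjusted p = 0.505).

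Manf encodes a small secreted ER protein induced in ER stress. Manf read 9.65, 9.60, 9.92, 9.50 and 9.42 with vehicle, 9.43, 9.20, 9.89 and 9.37 with GFP shRNA, and 9.49, 8.79, 8.87, 8.76 and 8.62 with Jnk1 shRNA. Jnk1 array 1 stood apart from the other 4, which lay between 8.62 and 8.87, below every control array. The fall was -0.56 ± 0.16 (SE, adjusted p = 0.0143) against GFP shRNA and -0.71 ± 0.15 (SE, adjusted p = 0.00162) against vehicle. Against GFP shRNA it was lost after median scaling (-0.34, adjusted p = 0.21) and without GFP array 3 (-0.43, adjusted p = 0.0581).

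Creld2 encodes an ER protein that is itself induced by ER stress, and it moved the other way. Creld2 read 8.26, 8.20, 8.80, 8.21 and 7.99 with vehicle, 8.60, 7.39, 8.91 and 8.18 with GFP shRNA, and 9.50, 9.18, 9.18, 8.98 and 9.25 with Jnk1 shRNA. All 5 Jnk1 arrays lay above every control array, while GFP array 2 was the lowest of all. Creld2 rose 1.93-fold against GFP shRNA (0.95 ± 0.23 SE, adjusted p = 0.00504) and 1.90-fold against vehicle (0.92 ± 0.22 SE, adjusted p = 0.00322). It had the widest spread among the called members, with a pooled SD of 0.40, and the gain was not past the threshold with the spike-in covariate (0.73 and 0.70, adjusted p = 0.173 for both).

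Dnajb11, an Hsp40 cochaperone that hands unfolded proteins to BiP, rose 1.28-fold against GFP shRNA and 1.21-fold against vehicle. Dnajb11 read 8.65, 8.65, 8.78, 8.60 and 8.68 with vehicle, 8.54, 8.43, 8.92 and 8.50 with GFP shRNA, and 8.97, 9.02, 9.11, 8.82 and 8.83 with Jnk1 shRNA. Jnk1 arrays lay above every vehicle array and overlapped with GFP array 3. The differences were 0.35 ± 0.10 (SE, adjusted p = 0.011) and 0.28 ± 0.09 (SE, adjusted p = 0.0258). They did not pass with the spike-in covariate (adjusted p = 0.136 and 0.23), and the call against vehicle was lost after median scaling (0.34, adjusted p = 0.0606) and without vehicle array 4, Jnk1 array 2 or Jnk1 array 3 (adjusted p up to 0.0705). Hsp90b1, the ER form of Hsp90 known as GRP94, gave 0.19 ± 0.08 (SE, adjusted p = 0.0841) against GFP shRNA and rose slightly against vehicle (0.25 ± 0.08 SE, adjusted p = 0.0186). Its rise did not pass on values as deposited (0.13, adjusted p = 0.288), after median scaling (0.16, adjusted p = 0.413), or without Jnk1 array 2 (0.21, adjusted p = 0.0508) or Jnk1 array 5 (0.19, adjusted p = 0.0559). Against GFP shRNA it rose with the spike-in covariate (0.41, adjusted p = 0.0112) and without Jnk1 array 1 (0.24, adjusted p = 0.0312).

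The lectin chaperones that hold newly made glycoproteins did not pass on their probe sets of highest mean, and another probe set of each did. Calr, calreticulin, gave 0.21 ± 0.09 (SE, adjusted p = 0.0969) against GFP shRNA and 0.16 against vehicle, with GFP array 3 (11.38) and vehicle array 2 (11.29) set apart from their groups. Without GFP array 3 it passed against GFP shRNA (0.32, adjusted p = 0.00443), as did another of its probe sets on all arrays (0.31, adjusted p = 0.0317). Canx, calnexin, was among the steadiest members, with all 14 arrays between 10.84 and 11.05 and differences of -0.01 and 0.04, although another of its probe sets rose in both comparisons (0.36 and 0.28). The BiP cochaperones Dnajb9 (0.02 and 0.11) and Dnajc3 (0.10 and 0.00) and the BiP-associated Sdf2l1 (0.05 and -0.16) did not pass in either comparison. Another probe set of Dnajc3 rose by 0.48 against GFP shRNA (adjusted p = 0.0054).

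**Figure D2:**
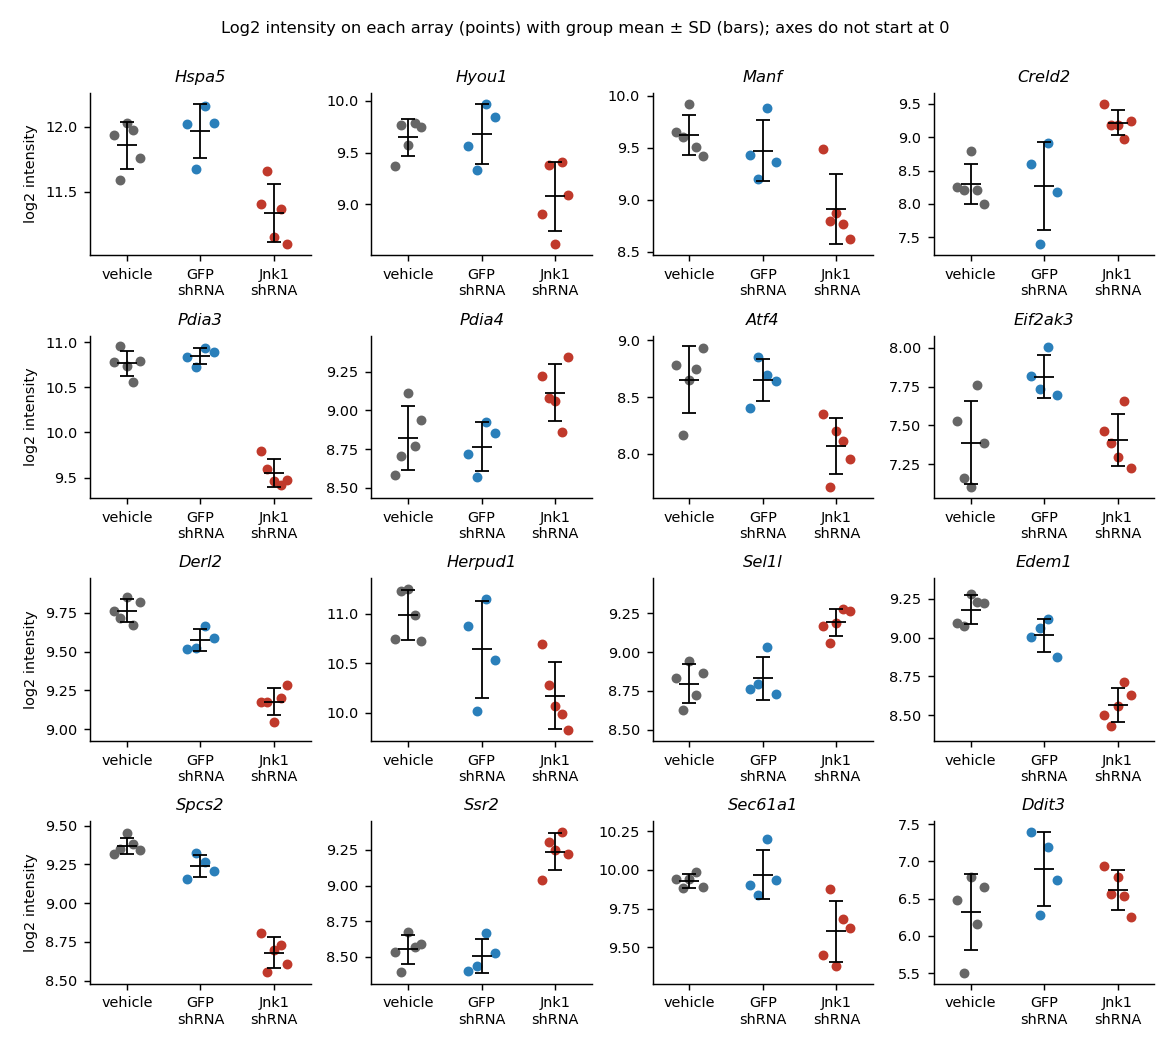
Log2 intensity on each array for 16 members, with points for arrays and bars for the group mean ± SD, on axes that do not start at 0. The Jnk1 arrays lie apart from both control groups for Pdia3, Creld2, Sel1l, Edem1, Derl2, Spcs2 and Ssr2, and overlap with them for Ddit3.

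The disulfide isomerases held the strongest fall among the members. Of 4 tested, Pdia3 fell and Pdia4 rose against GFP shRNA, and Pdia6 also rose against vehicle. Pdia3, known as ERp57, works with calnexin and calreticulin on disulfide bonds of glycoproteins. Pdia3 read 10.78, 10.95, 10.74, 10.57 and 10.79 with vehicle, 10.84, 10.72, 10.93 and 10.89 with GFP shRNA, and 9.80, 9.59, 9.46, 9.42 and 9.47 with Jnk1 shRNA. The highest Jnk1 array (9.80) lay below the lowest control array (10.57), and the 2 control groups covered the same range. Pdia3 fell to 40.6% of its level with GFP shRNA (-1.30 ± 0.09 (SE, adjusted p = 3.94e-08)) and to 43.0% of its level with vehicle (-1.22 ± 0.08 (SE, adjusted p = 1.63e-08)). It was read by 1 probe set, and it stayed past the threshold under every alternative and with any array left out. For its partners Calr and Canx, the probe sets of highest mean gave 0.21 and -0.01 against GFP shRNA without passing, and another probe set of each rose, as given above.

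Pdia4, known as ERp72, rose 1.27-fold against GFP shRNA and 1.22-fold against vehicle. Pdia4 read 8.58, 8.71, 9.11, 8.77 and 8.94 with vehicle, 8.72, 8.57, 8.93 and 8.85 with GFP shRNA, and 9.22, 9.08, 9.06, 8.86 and 9.35 with Jnk1 shRNA. Jnk1 arrays tended to the top, but Jnk1 array 4 (8.86) lay inside both control groups. The differences, 0.35 ± 0.12 (SE, adjusted p = 0.0308) and 0.29 ± 0.11 (SE, adjusted p = 0.0473), were close to the threshold. The first was lost without GFP array 1 or 2 or Jnk1 array 1 or 5 (adjusted p up to 0.098), and the second on leaving out vehicle array 1, 2 or 4, GFP array 1 or 5, or any Jnk1 array but 4 (up to 0.127). With the spike-in covariate neither passed (adjusted p = 0.258 and 0.344).

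Pdia6, another isomerase of the ER lumen, was read in opposite directions by its probe sets. Pdia6 read 9.95, 10.18, 10.27, 10.06 and 9.94 with vehicle, 10.09, 10.10, 10.36 and 10.26 with GFP shRNA, and 10.19, 10.48, 10.35, 10.42 and 10.28 with Jnk1 shRNA. On this probe set the Jnk1 arrays overlapped with both control groups. It gave 0.14 ± 0.08 (SE, adjusted p = 0.204) against GFP shRNA and rose against vehicle (0.27 ± 0.08 SE, adjusted p = 0.0139), while its dimmer probe set fell in both comparisons (-0.66, adjusted p = 0.0174, and -0.70, adjusted p = 0.00778). The rise against vehicle was lost on values as deposited (0.22, adjusted p = 0.067) and after median scaling (0.25, adjusted p = 0.183). The 2 probe sets thus gave the gene no common direction. P4hb, the abundant isomerase known as PDI, had the smallest spread of all members, with a pooled SD of 0.039. P4hb read 11.68, 11.67, 11.70, 11.59 and 11.65 with vehicle, 11.54, 11.57, 11.60 and 11.55 with GFP shRNA, and 11.71, 11.67, 11.70, 11.69 and 11.60 with Jnk1 shRNA. GFP arrays lay below the vehicle arrays but for vehicle array 4. P4hb gave 0.11 ± 0.04 (SE, adjusted p = 0.0533) against GFP shRNA and 0.01 ± 0.04 (SE, adjusted p = 0.814) against vehicle, and on values as deposited it fell against vehicle (-0.24, adjusted p = 0.00449). Against GFP shRNA it passed as higher with the stricter filter (adjusted p = 0.0359), with 1 probe set per gene (adjusted p = 0.0488) and without Jnk1 array 5 (0.13, adjusted p = 0.0352). The sign of that difference turned, without passing, on values as deposited (-0.11) and after median scaling with GFP array 2 left out (-0.06).

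ER-associated degradation (ERAD) retrieves misfolded proteins into the cytosol for the proteasome. Of its 6 members, Sel1l rose and Edem1 and Derl2 fell against GFP shRNA, and against vehicle Herpud1 fell as well. Edem1 encodes a lectin that marks misfolded glycoproteins by trimming mannose. Edem1 read 9.09, 9.08, 9.28, 9.23 and 9.22 with vehicle, 9.01, 9.06, 9.12 and 8.87 with GFP shRNA, and 8.50, 8.43, 8.56, 8.71 and 8.63 with Jnk1 shRNA. All Jnk1 arrays were below all control arrays. It fell to 73.3% with respect to GFP shRNA (-0.45 ± 0.08 (SE, adjusted p = 3.70e-04)) and to 65.3% with respect to vehicle (-0.61 ± 0.07 (SE, adjusted p = 7.32e-06)). Against vehicle another probe set fell by 0.22 (adjusted p = 0.03), and against GFP shRNA that probe set gave 0.00 (adjusted p = 0.993).

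Derl2 encodes a derlin, a membrane protein of the retrotranslocation channel. Derl2 read 9.76, 9.72, 9.85, 9.67 and 9.82 with vehicle, 9.52, 9.52, 9.67 and 9.59 with GFP shRNA, and 9.17, 9.17, 9.04, 9.20 and 9.29 with Jnk1 shRNA. The groups formed 3 bands, with vehicle highest and Jnk1 shRNA lowest, and vehicle array 4 and GFP array 3 were level at 2 decimals. Derl2 fell against GFP shRNA (-0.40 ± 0.07 (SE, adjusted p = 2.21e-04)) and against vehicle (-0.59 ± 0.06 (SE, adjusted p = 1.84e-06)), and GFP shRNA lay -0.19 ± 0.07 (SE, adjusted p = 0.16) from vehicle. Its dimmer probe set did not pass, at 0.14 and -0.13. The falls of Edem1 and Derl2 against GFP shRNA were not past the threshold after median scaling (-0.23, adjusted p = 0.176, and -0.18, adjusted p = 0.302), while those against vehicle passed under every alternative tried on that probe set.

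Sel1l is the adaptor that ties the ubiquitin ligase of ERAD to its substrates. Sel1l read 8.83, 8.62, 8.94, 8.72 and 8.86 with vehicle, 8.76, 8.80, 9.04 and 8.73 with GFP shRNA, and 9.17, 9.06, 9.19, 9.28 and 9.27 with Jnk1 shRNA. Every Jnk1 array exceeded every control array, the closest being GFP array 3 (9.04) and Jnk1 array 2 (9.06). It rose 1.29-fold against GFP shRNA (0.36 ± 0.08 SE, adjusted p = 0.00366) and 1.32-fold against vehicle (0.40 ± 0.08 SE, adjusted p = 8.88e-04). Of its other 3 probe sets, 1 rose in both comparisons (0.48 and 0.40) and 2 did not pass (0.24 and 0.07 against GFP shRNA). With the spike-in covariate the rise did not pass (0.31, adjusted p = 0.105, and 0.35, adjusted p = 0.0605). Its ligase partner Syvn1, or HRD1, gave 0.13 and 0.12, neither past the threshold, with Jnk1 array 1 the highest of all arrays at 9.33.

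Herpud1, an ER membrane protein that organises the ERAD complex, carries both ERSE-II and the composite element shown above. Herpud1 read 10.74, 11.23, 11.25, 10.99 and 10.72 with vehicle, 10.88, 10.01, 11.15 and 10.53 with GFP shRNA, and 10.70, 10.28, 10.06, 9.98 and 9.83 with Jnk1 shRNA. GFP array 2 lay far below the other GFP arrays and among the Jnk1 arrays, while Jnk1 array 1 came closest to vehicle. Herpud1 fell to 56.9% of its level with vehicle (-0.81 ± 0.19 (SE, adjusted p = 0.00325)) and gave -0.47 ± 0.20 (SE, adjusted p = 0.0894) against GFP shRNA. Without GFP array 2 it passed against GFP shRNA too (-0.68, adjusted p = 0.0111), as it did without Jnk1 array 1 (-0.60, adjusted p = 0.0283) and with array weights (-0.68, adjusted p = 0.00597). Derl1, the paralogue of Derl2, gave 0.15 and 0.14 without passing. After median scaling it passed as higher against GFP shRNA (0.36, adjusted p = 0.018), whereas another of its probe sets fell in both comparisons (-0.47, adjusted p = 0.00265, and -0.43, adjusted p = 0.0028).

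Genes of protein entry into the ER also moved apart. Of 8 tested, Ssr2 rose and Sec61a1, Ssr4 and Spcs2 fell against GFP shRNA, and against vehicle the same 4 passed and Spcs1 rose. Spcs2 encodes a subunit of the signal peptidase, which removes the signal peptide. Spcs2 read 9.32, 9.35, 9.45, 9.38 and 9.34 with vehicle, 9.15, 9.32, 9.27 and 9.21 with GFP shRNA, and 8.81, 8.56, 8.70, 8.73 and 8.60 with Jnk1 shRNA. The Jnk1 arrays lay below all others by a wide gap. It fell to 67.9% of its level with GFP shRNA (-0.56 ± 0.07 (SE, adjusted p = 1.34e-05)) and to 61.9% of its level with vehicle (-0.69 ± 0.06 (SE, adjusted p = 4.85e-07)). Its other probe set gave -0.93 and -1.10, and the call held under every alternative and with any array left out. Spcs1, another subunit of the same enzyme, gave 0.14 ± 0.06 (SE, adjusted p = 0.0732) against GFP shRNA and rose slightly against vehicle (0.17 ± 0.05 SE, adjusted p = 0.0222), a call lost on values as deposited (0.14, adjusted p = 0.102), after median scaling, without the variance trend, with the spike-in covariate and without Jnk1 array 3 or 5 (0.15, adjusted p = 0.0501 and 0.0565). Against GFP shRNA it passed as higher after median scaling (0.32, adjusted p = 0.0463) and without GFP array 5 (0.18, adjusted p = 0.0339). Its other probe set gave 0.06 against vehicle (adjusted p = 0.576).

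The translocon-associated proteins, 4 subunits of 1 complex beside the Sec61 channel, went different ways. Ssr2 read 8.53, 8.39, 8.67, 8.57 and 8.59 with vehicle, 8.40, 8.44, 8.66 and 8.53 with GFP shRNA, and 9.04, 9.31, 9.25, 9.38 and 9.22 with Jnk1 shRNA. For Ssr2 the Jnk1 arrays, from 9.04 up, stood above every control array. It rose 1.66-fold against GFP shRNA (0.73 ± 0.08 SE, adjusted p = 8.62e-06) and 1.61-fold against vehicle (0.69 ± 0.08 SE, adjusted p = 5.24e-06). Ssr2 had 1 probe set, so no other could be tried, and the call held under every other alternative and with any array left out. Ssr4 read 9.79, 10.05, 9.78, 9.76 and 9.70 with vehicle, 9.63, 9.79, 9.49 and 9.62 with GFP shRNA, and 9.59, 9.21, 9.50, 9.19 and 9.34 with Jnk1 shRNA. For Ssr4 the Jnk1 arrays lay below every vehicle array and overlapped with the GFP arrays. Ssr4 fell against vehicle (-0.45 ± 0.09 (SE, adjusted p = 8.96e-04)) and only just against GFP shRNA (-0.27 ± 0.10 (SE, adjusted p = 0.0418)). The latter was lost after median scaling (-0.05, adjusted p = 0.777), on values as deposited (-0.21, adjusted p = 0.0917), and on leaving out vehicle array 3, GFP array 1, 2 or 5, or Jnk1 array 2, 4 or 5 (up to 0.127). The call was also lost without the intensity filter, without the variance trend and in a fit of these 2 groups only (adjusted p up to 0.0681). Ssr4 had 3 tested probe sets, all below 0 in both comparisons, and 2 were called lower in each. The probe set not called gave -0.20 (adjusted p = 0.515) against vehicle, and a different one gave -0.51 (adjusted p = 0.0562) against GFP shRNA. Ssr1 (-0.14 and -0.15) and Ssr3 (0.18 and 0.08) did not pass, but against GFP shRNA Ssr1 fell with array weights (-0.16, adjusted p = 0.0499) and Ssr3 rose after median scaling (0.34, adjusted p = 0.0405).

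Sec61a1 encodes the pore of the Sec61 channel. Sec61a1 read 9.94, 9.88, 9.94, 9.99 and 9.89 with vehicle, 9.90, 9.84, 10.20 and 9.93 with GFP shRNA, and 9.45, 9.88, 9.38, 9.68 and 9.63 with Jnk1 shRNA. The Jnk1 arrays lay below the vehicle arrays, with Jnk1 array 2 and vehicle array 2 level at 2 decimals, and Jnk1 array 2 overlapped with the GFP arrays. Sec61a1 fell to 77.6% of its level with GFP shRNA (-0.37 ± 0.09 (SE, adjusted p = 0.00702)) and to 79.8% of its level with vehicle (-0.33 ± 0.09 (SE, adjusted p = 0.00833)). Its other 5 probe sets gave -0.11 to -0.27 against GFP shRNA, none past the threshold, and 1 of them fell against vehicle (-0.41, adjusted p = 0.0386). The call was lost after median scaling (-0.17, adjusted p = 0.412, and -0.31, adjusted p = 0.0947) and with the spike-in covariate (-0.13, adjusted p = 0.497, and -0.08, adjusted p = 0.674). Sec61b, a small subunit of the channel, gave 0.00 and -0.18 (adjusted p = 0.0812 against vehicle) and passed against vehicle without vehicle array 5 (-0.23, adjusted p = 0.0409) or Jnk1 array 1 (-0.25, adjusted p = 0.00972), on values as deposited (-0.20, adjusted p = 0.0439) and with the spike-in covariate (-0.44, adjusted p = 0.00244).

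**Figure D3:**
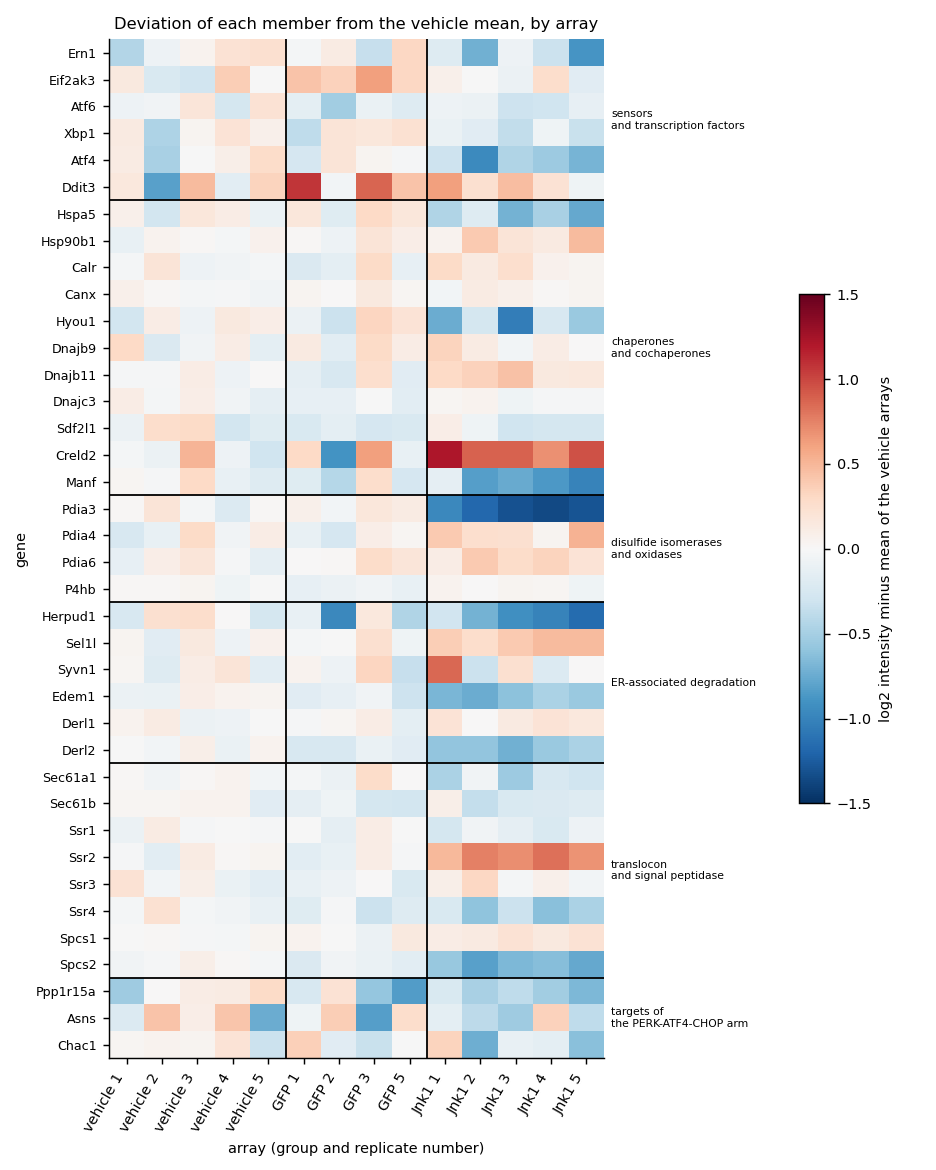
Deviation of each member's log2 intensity from its vehicle mean on each of the 14 arrays (colour, from -1.5 in blue to 1.5 in red), with horizontal lines between roles and vertical lines between groups. Pdia3, Spcs2 and Edem1 are blue and Ssr2, Creld2 and Sel1l red on all 5 Jnk1 arrays, while GFP array 2 is low for Creld2 and Herpud1.

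Of the 4 members that ATF4 and CHOP are known to switch on, 3 were tested and 0 passed against GFP shRNA or vehicle, with 0 and 1 at an unadjusted p under 0.05. Ppp1r15a, or GADD34, directs the phosphatase that reverses the action of PERK. Ppp1r15a read 6.75, 7.28, 7.38, 7.40 and 7.57 with vehicle, 7.03, 7.49, 6.70 and 6.43 with GFP shRNA, and 7.04, 6.79, 6.89, 6.76 and 6.60 with Jnk1 shRNA. Vehicle arrays other than array 1 were high, and the groups overlapped. It gave -0.10 ± 0.19 (SE, adjusted p = 0.738) against GFP shRNA and -0.46 ± 0.18 (SE, adjusted p = 0.0572) against vehicle, where it passed without vehicle array 1 (-0.59, adjusted p = 0.0129), GFP array 2 (-0.46, adjusted p = 0.0235), GFP array 5 (-0.46, adjusted p = 0.0392) or Jnk1 array 1 (-0.52, adjusted p = 0.0495). It also passed against vehicle with array weights (-0.57, adjusted p = 0.00578), in a fit of these 2 groups only (adjusted p = 0.0221) and with the stricter filter (adjusted p = 0.048).

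Asns, asparagine synthetase, had the widest spread of the 38 tested members (pooled SD 0.46). Asns read 6.27, 6.91, 6.57, 6.89 and 5.73 with vehicle, 6.41, 6.85, 5.65 and 6.73 with GFP shRNA, and 6.33, 6.08, 5.94, 6.82 and 6.09 with Jnk1 shRNA. Low arrays were found in every group (vehicle 5, GFP 3 and Jnk1 3). It gave -0.16 against GFP shRNA and -0.22 against vehicle, and the interval against GFP shRNA ran from -0.73 to 0.41. Chac1, an enzyme that breaks down glutathione, carries the composite element shown above. Chac1 read 6.50, 6.51, 6.50, 6.67 and 6.14 with vehicle, 6.82, 6.29, 6.14 and 6.46 with GFP shRNA, and 6.80, 5.73, 6.36, 6.32 and 5.84 with Jnk1 shRNA. Jnk1 arrays 2 and 5 were the lowest, and Jnk1 array 1 was near the top. Chac1 gave -0.22 ± 0.20 (SE, adjusted p = 0.427) against GFP shRNA and -0.26 ± 0.19 (SE, adjusted p = 0.308) against vehicle. With the spike-in covariate it fell in both (-0.83, adjusted p = 0.0167, and -0.89, adjusted p = 0.00863). Jnk1 array 1, the highest of its group for Chac1, also had the lowest spike-in level (7.92). How far the fall with the covariate rests on that array was not tested.

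Trib3, a pseudokinase induced by CHOP, lay below the filter and was not tested. Trib3 read 4.44, 5.00, 5.07, 4.67 and 3.21 with vehicle, 4.64, 4.56, 3.60 and 5.09 with GFP shRNA, and 5.33, 5.40, 5.47, 5.17 and 5.48 with Jnk1 shRNA. All 5 Jnk1 arrays were above the 9 control arrays, the reverse of the direction of Atf4. Its mean over all arrays, 4.79, was too low for it to be tested, and the differences at this level have no direct bound on background.

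Between GFP shRNA and vehicle, 0 of the 38 members passed the limma test, where 2.58% of all probe sets did (2.05% higher and 0.530% lower), a share too small for the members' count to stand apart from it, and 5 members had an unadjusted p under 0.05. The smallest adjusted p was 0.115, for Eif2ak3 (0.43), and the median difference was -0.03. Differences were as large as 0.58 for Ddit3 (95% interval 0.04 to 1.12), -0.36 for Ppp1r15a and -0.34 for Herpud1. Only Derl2 had groups that did not overlap, where 6.30% of all probe sets did not. Without vehicle array 4, Eif2ak3 passed as higher with GFP shRNA (0.52, adjusted p = 0.0407). The members varied less within groups than the array as a whole: their median pooled SD was 0.15, against 0.22 over all tested probe sets, with Canx (0.059), Spcs1 (0.062) and P4hb lowest.

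In most members with more than 1 tested probe set the probe sets shared a sign, but calls often differed between them. Of 19 such genes, all probe sets had the same sign in 12 against GFP shRNA and in 15 against vehicle. Between GFP shRNA and vehicle, where no member was called, it was also 12. For Sec61a1, only 1 of 6 probe sets was called lower against GFP shRNA. Calls in opposite directions occurred in 0 genes against GFP shRNA and in 1, Pdia6, against vehicle. Hspa5, Atf4, Spcs2, Sel1l and Sec61a1 kept 1 sign over all their tested probe sets in both comparisons, whereas Derl2, Edem1, Canx, Derl1 and Dnajc3 did not in at least 1.

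**Figure D4:**
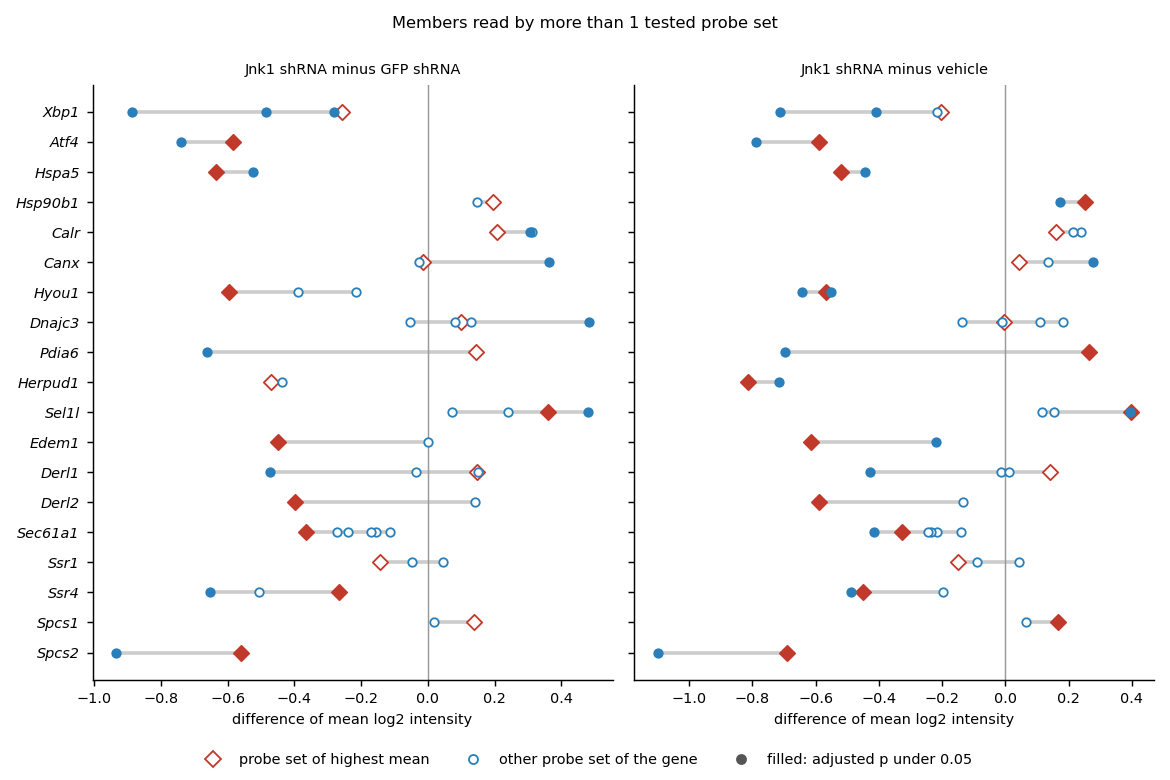
Difference of mean log2 intensity for every tested probe set of the 19 members that had more than 1, with the probe set of highest mean as a diamond and filled symbols for an adjusted p under 0.05. The 2 probe sets of Pdia6 lie on opposite sides of 0 (0.27 and -0.70 against vehicle), and the 4 of Xbp1 run from -0.26 to -0.89 against GFP shRNA.

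Set beside the promoter elements, the members showed no common direction. Of the 8 with the ER stress response element, 1 was higher (Creld2), 1 lower (Hspa5) and 6 were not called against GFP shRNA. Against vehicle, 3 were higher (Creld2, Hsp90b1 and Pdia6), 1 was lower (Hspa5) and 4 were not called. Another probe set of Pdia6 was called lower against vehicle (-0.70). The rises of Hsp90b1 and Pdia6 were lost on values as deposited and after median scaling. The calls of Creld2 and Hspa5 were lost with the spike-in covariate. The differences of the 8 ran from -0.63 to 0.95 against GFP shRNA, with a median of 0.14. The 2 genes with ERSE-II split as well, with Dnajb11 higher (0.35 and 0.28) and Herpud1 lower against vehicle (-0.81). Between GFP shRNA and vehicle none of these 10 genes was called.

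Other genes of the pathway, from a list of 109 that holds none of the members, were also mixed. Of 90 tested, 16 were higher, 20 lower and 54 did not pass against GFP shRNA, and 20 were higher, 29 lower and 41 did not pass against vehicle. That is 40% and 54.4% called, beside 33.1% and 37.6% of all probe sets, with medians of -0.04 and -0.12. Between GFP shRNA and vehicle 0 were called, 9 had an unadjusted p under 0.05, and the smallest adjusted p was 0.0952.

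By role, other sensors and regulators had 0 higher and 3 lower of 10 against GFP shRNA. Creb3l3, a liver transcription factor that like ATF6 is freed from the ER by cleavage, fell from 10.30 to 10.52 on the GFP arrays to 9.85 to 10.00 on the Jnk1 arrays (-0.51 ± 0.06 (SE, adjusted p = 1.26e-05)), and by 0.47 against vehicle. Mbtps1, the protease that cleaves both, fell by 0.32 in both comparisons, a call lost after median scaling. Another probe set of Mbtps1 did not pass (-0.17, adjusted p = 0.559, against GFP shRNA and -0.01, adjusted p = 0.982, against vehicle). Among 16 other chaperones and glycoprotein folding genes, 5 were higher and 2 lower against GFP shRNA. Ganab, the glucosidase whose trimming lets calnexin, calreticulin and Pdia3 bind, fell from 8.15 to 8.26 on the GFP arrays to 6.72 to 7.22 on the Jnk1 arrays, to 40.8% of its level (-1.29 ± 0.11 (SE, adjusted p = 2.73e-07)), and by 1.46 against vehicle. Cnpy2, an ER protein with a saposin-like fold, fell by 0.52 and by 0.70, and lost the first call after median scaling.

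Other disulfide genes had 0 higher and 2 lower of 9 against GFP shRNA and 0 higher and 5 lower against vehicle. Pdia5 fell by 0.66 and by 1.04, and the oxidase Qsox1 by 0.50 and by 0.59, the first of these 2 lost after median scaling. In ERAD, 2 were higher and 1 lower of 13 against GFP shRNA, and 3 higher and 4 lower against vehicle. The ligase Rnf5 rose by 0.71 and 0.51, the latter lost with the spike-in covariate. The adaptor Ubxn4 fell by 0.44 and by 0.34, both lost after median scaling. Another probe set of Ubxn4 did not pass (-0.05, adjusted p = 0.841, against GFP shRNA and -0.26, adjusted p = 0.23, against vehicle).

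Translocation and N-glycosylation genes had 6 higher and 6 lower of 22 in both comparisons, with large opposite changes inside oligosaccharyltransferase, the enzyme that attaches sugar chains to entering proteins. Stt3b, a catalytic subunit, fell from 9.53 to 9.71 on the GFP arrays to 8.11 to 8.28 on the Jnk1 arrays (-1.44 ± 0.06 (SE, adjusted p = 1.06e-09)), and by 1.37 against vehicle. Its other probe set gave -0.59 and -0.68. Ostc, a subunit of the complexes that hold the other catalytic subunit, rose from 9.09 to 9.30 to 9.94 to 10.20 (0.83 ± 0.07 SE, adjusted p = 4.91e-07), and by 0.83 against vehicle. Among the remaining subunits, named here after their values were seen, Rpn1 fell by 0.79 and Rpn2 and Magt1 rose by 0.47 and 0.62 against GFP shRNA, while Stt3a (-0.05), Ddost (0.12), Dad1 (0.03) and Tusc3 (0.24) did not pass.

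In the ATF4 and amino acid response list, 3 were higher and 6 lower of 20 against GFP shRNA, and 6 higher and 7 lower against vehicle. Atf5, a transcription factor related to ATF4, fell from 8.59 to 9.05 on the GFP arrays to 7.09 to 7.49 on the Jnk1 arrays, to 31.9% of its level (-1.65 ± 0.12 (SE, adjusted p = 9.81e-08)), and fell by 2.03 against vehicle. Cth, which makes cysteine from cystathionine, rose from 11.07 to 11.28 to 11.81 to 11.95 (0.71 ± 0.06 SE, adjusted p = 3.64e-07), and by 0.60 against vehicle. Larger rises were in the list, up to 1.52 against GFP shRNA and 1.58 against vehicle. Ddit4 and Sesn2 are named here after their values were seen, without their calls. Ddit4 read 7.42 to 8.16 on the Jnk1, 6.08 to 6.47 on the GFP and 5.26 to 9.17 on the vehicle arrays. For Sesn2 these were 6.27 to 6.78, 4.86 to 5.93 and 3.67 to 5.38. For Creb3l3, Ganab, Stt3b, Ostc, Atf5 and Cth the Jnk1 arrays did not overlap with either control group.

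**Figure D5:**
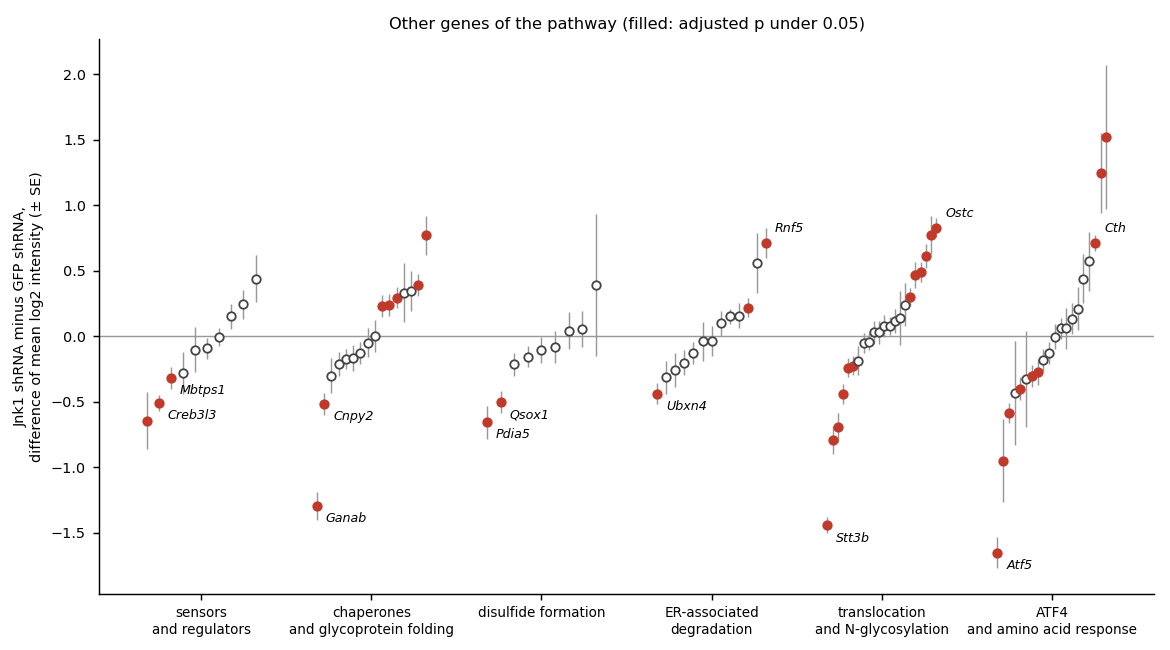
Difference of mean log2 intensity between Jnk1 and GFP shRNA (± SE) for the 90 tested genes of the pathway that are not members, by role, filled where the adjusted p was under 0.05. Atf5 (-1.65), Stt3b (-1.44) and Ganab (-1.29) lie lowest among the genes named in the figure, and Ostc (0.83) highest. The highest point of all (1.52), in the ATF4 and amino acid response list, is not named in it.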

How the data were processed

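Liver RNA of the vehicle (n = 5), GFP shRNA (n = 4) and Jnk1 shRNA (n = 5) groups was read on 14 arrays, grouped by the labels' titles. The authors deposited linear intensities for 22690 probe sets, with the software, background correction and detection calls not given in the sources used here. Each array's mean with 2% of values trimmed from either end was 150.05 to 150.06, so some scaling had been done, yet medians spanned 0.48 on the log2 scale.

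Intensities were quantile normalized, floored at the 5th percentile (2.01) and log2 transformed. The 64 control probe sets and the dimmest 40% of the others were left out, and 13575 remained, the lowest with a mean intensity of 28.4. With no detection calls, background gives no bound on dim values, and the number of arrays limits the precision. Symbols came from the platform annotation of 2016. Probe sets with several symbols (691) or none (1606) were given no gene name, and 8027 genes kept a probe set.

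Group means were fitted to all arrays with limma 3.58.1 (R 4.3.3, eBayes, variance trend over intensity). Benjamini-Hochberg adjustment ran over all 13575 probe sets, an adjusted p under 0.05 made a call, and 95% intervals are unadjusted. Differences are of mean log2 intensity. The fit was tested on simulated data. Replicate numbers were not used to pair the arrays in this fit. The deviations of 13 same-numbered pairs correlated at a median of 0.04 (-0.24 to 0.12), and those of 52 differently numbered pairs at -0.01 (-0.15 to 0.30). Whether arrays with the same number share anything cannot be told from these values.

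Members and lists were chosen with earlier results of these data known. Values on every array are given for Hspa5, Xbp1, Atf4 and Ddit3 and for up to 4 members per role with the smallest p in any comparison, and for Dnajb11, added after its values were seen. From the other pathway genes up to 2 per list are named, by p against GFP shRNA, and further ones where the text says that their values were seen first. Alternatives were values as deposited, median scaling, other filters, a pseudocount of 16, array weights, other variance models, fits of 2 groups only, fits with 1 probe set for each gene, a covariate for the spike-in level, a replicate block, other probe sets and each array left out.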

Additional observations from a re-analysis of the deposited data

Results flagged for a closer look

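Of 120 sets of group values examined (38 members, Mapk8 and the spike-in level in 3 groups), 8 held an array farther from the rest than a 95% criterion for the highest or lowest of a group allows, and chance alone sets apart about 1 group in 20. Xbp1 was low on vehicle array 2 (11.35, the next at 11.86) and on GFP array 1 (11.43, the next at 11.98). Calr was high on vehicle array 2 (11.29, the next at 11.06) and on GFP array 3 (11.38, the next at 10.96). Manf was high on Jnk1 array 1 (9.49, the next at 8.87). Sec61b was low on vehicle array 5 (9.81, the next at 10.01), and Ssr4 was high on vehicle array 2 (10.05, the next at 9.79). Mapk8 was low on vehicle array 3 (7.22, the next at 7.53), still above every Jnk1 array. Vehicle array 2 thus held 3 of the 8 values, 1 low and 2 high. Groups of 4 and 5 arrays were tested for 1 value at a time, and the cause of these values was not tested.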

How the results depend on the processing

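Against GFP shRNA, the 5 members called higher became 8 after median scaling and 2 with the spike-in covariate, and the 11 lower became 3 after median scaling and 6 with GFP array 2 left out as well. The 4497 probe sets called became 2349 with the spike-in covariate and 2790 with 1 probe set per gene, where fewer were tested. Against vehicle, the 8 higher became 5 on values as deposited, 3 after median scaling and 3 with the spike-in covariate, and the 5099 probe sets called became 3013 with the spike-in covariate and 3128 with 1 probe set per gene. Between GFP shRNA and vehicle, the 350 probe sets called became 209 in a fit of these 2 groups only. With each array left out in turn, against GFP shRNA 4 to 6 members were higher, 9 to 12 lower and 3862 to 4574 probe sets called. Against vehicle 5 to 8 were higher (5 without Jnk1 array 2, 3 or 5), 11 to 13 lower and 4579 to 5475 probe sets called. Between GFP shRNA and vehicle 0 to 1 were higher (1 without vehicle array 4), 0 lower and 198 to 381 probe sets called (198 without GFP array 5).

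Directions turned, against GFP shRNA, on another probe set of Canx (0.36), Pdia6 (-0.66), Edem1 (0.0013), Derl1 (-0.47) and Derl2 (0.14), and, against vehicle, on values as deposited for P4hb (-0.24) and on another probe set of Pdia6 (-0.70) and Derl1 (-0.43). A further 148 changes of sign, in differences called under neither setting, at most 0.18 in size as reported and up to 0.53 under the alternative, were not counted as turned. With the replicate number as a block, 1 member was called between GFP shRNA and vehicle (Eif2ak3, 0.50, adjusted p = 0.0456) where 0 were without the block, and Ssr4 lost its call against GFP shRNA (-0.24, adjusted p = 0.0971). The labels do not say what same-numbered arrays share beyond the number. The causes were not tested. Pdia3, Ssr2 and Spcs2 kept direction and call under every alternative and with each array left out in both comparisons with Jnk1 shRNA. Pdia3 and Ssr2 had 1 probe set each, so other probe sets could not be tried for them. Without detection calls the dim members, such as Trib3, have no measured bound.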
